A study of Mus musculus with 4 samples.

Results

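The genes described here encode 6 enzymes and transporters of arginine and itaconate metabolism: Slc7a2, Arg1, Arg2, Nos2, Odc1 and Acod1. They were taken by symbol from the 32285 genes of the deposited matrices, and all 6 were found. Cells came from tibial fracture calluses of C57BL/6J male mice aged 20 months, 7 days after treatment with a control microgel (2 libraries, control 1 and control 2) or an adenosine microgel (2 libraries, adenosine 1 and adenosine 2). The labels give no genetic change in any group, describe the cells as viable cells sorted after red cell lysis, and name the tissue both as callus and as bone marrow. Whether the libraries of a group are separate animals is not given in the sources used here, so p-values measure the spread between libraries, which may be technical. Where 4 values follow each other, they belong to control 1, control 2, adenosine 1 and adenosine 2, in that sequence.

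Arginine enters cells through cationic amino acid transporters such as Slc7a2. Arginases (cytosolic Arg1, mitochondrial Arg2) split it to ornithine and urea, while the inducible nitric oxide synthase Nos2 turns it to nitric oxide and citrulline; in macrophages these routes compete for one substrate and have long served as labels of alternative and inflammatory activation. Odc1, ornithine decarboxylase, takes ornithine into polyamine synthesis, which dividing cells need. Acod1 makes itaconate from the citric acid cycle intermediate cis-aconitate, and is known as a gene that myeloid cells switch on under inflammatory stimulation.

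On mouse chromosomes (GRCm38, the mm10 build, GENCODE M21), Arg1 lies at chr10:24915221-24927484 on the minus strand. The other genes lie on the plus strand: Arg2 at chr12:79130777-79156301, Nos2 at chr11:78920787-78960254, Acod1 at chr14:103046977-103056573, Odc1 at chr12:17544794-17551505 and Slc7a2 at chr8:40862396-40922308. Each value counts transcripts over the whole gene from 3' tags and does not separate isoforms.

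The RefSeq promoter table (GRCm38.p6) held 2 of the 6 genes, Acod1 and Odc1. Their windows, 250 bases before to 50 after the RefSeq start, are shown because these genes mark opposite ends of the neutrophil series described below, Odc1 high in progenitors and Acod1 high in mature cells. The windows are chr14:103046762-103047061 for Acod1 and chr12:17544623-17544922 for Odc1, both on the plus strand. Capitals mark the matches found on either strand: TATAAA and GGAANTTCC in Acod1, and the GC box GGGCGG in Odc1.
Acod1: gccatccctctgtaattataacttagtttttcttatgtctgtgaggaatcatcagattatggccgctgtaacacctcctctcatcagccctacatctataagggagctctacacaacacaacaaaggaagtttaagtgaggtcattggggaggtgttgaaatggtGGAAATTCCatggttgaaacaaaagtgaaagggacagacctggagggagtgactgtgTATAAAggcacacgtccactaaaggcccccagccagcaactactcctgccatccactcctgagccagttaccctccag
Odc1: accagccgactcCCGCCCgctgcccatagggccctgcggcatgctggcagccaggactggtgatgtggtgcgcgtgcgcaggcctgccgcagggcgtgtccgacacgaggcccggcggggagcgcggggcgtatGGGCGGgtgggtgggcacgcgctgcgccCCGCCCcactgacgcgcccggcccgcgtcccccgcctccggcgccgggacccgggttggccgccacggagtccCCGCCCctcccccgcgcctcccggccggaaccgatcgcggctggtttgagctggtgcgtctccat
The Acod1 window was 47% G and C and the Odc1 window 78%, against a median of 53% over 32544 promoters. TATAAA stood at -28 in Acod1 and occurs in 13.6% of promoters. GGAANTTCC stood at -85 in Acod1 and occurs in 0.928%; it was chosen after this window had been read, and the fuller NF-kB consensus searched first had no match. The Odc1 window held 4 GC boxes, which 35.9% of promoters hold at least once. TGACG occurred once in Odc1 (20.9% of promoters) and ACGTG once in Acod1 (19.7%). The other motifs searched on both strands, the interferon-stimulated response core (3.45% of promoters), TTCNNNGAA (8.33%), TGANTCA (7.79%), TTGCNNAA (10.8%) and CACGTG (7.17%), are not in either window. These letters are a description of the windows, not of binding.

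After removal of cells with few genes, a high mitochondrial share or a high doublet score, 8677, 6284, 8194 and 8125 cells remained, with a median of 3759, 2993, 3464 and 4714 UMIs (unique molecular identifiers, each a counted transcript). Pairs of libraries shared 13 to 28 cell barcodes, at most 0.305% of the smaller library. Control 2 stood apart before any member was considered: 60.3% of its cells fell in the mature neutrophil gate against 28.1% to 38.5% elsewhere, and 2.85% in the immature neutrophil gate against 19.1% to 23.3%. The 8 markers of its mature neutrophils summed to 12778 CPM (the counts of a gene scaled by all UMIs of the gated cells, in the usual unit) against 45431 to 49118 in the other libraries. Of genes that mark callus tissue, the cartilage gene Acan had 0, 170, 103 and 0 UMIs, and the bone collagen gene Col1a1 had 3495, 2974, 1948 and 5256 UMIs in 692, 100, 231 and 123 cells.

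Gates for 18 cell types used lists of 6 to 11 markers, none of them a member. Marker genes left out of the gates set mature neutrophils apart from macrophages. S100a8 was at 44407 to 85555 CPM in mature neutrophils and 779 to 4008 in macrophages. The macrophage receptor Csf1r was at 468 to 620 CPM in macrophages, 230 to 359 in classical monocytes and 52.7 to 71.2 in mature neutrophils. Ly6g was lower in mature than in immature neutrophils in each library (303, 62.0, 244 and 388 against 745, 594, 472 and 910 CPM). Cd68 in mature neutrophils was at 195 CPM in control 2 and 29.3 to 38.5 elsewhere. The nonclassical monocyte gate was mixed: its own 7 markers summed to 3063 to 3870 CPM, beside 1130 to 3370 CPM of the 8 mature neutrophil markers.

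**Figure D1:**
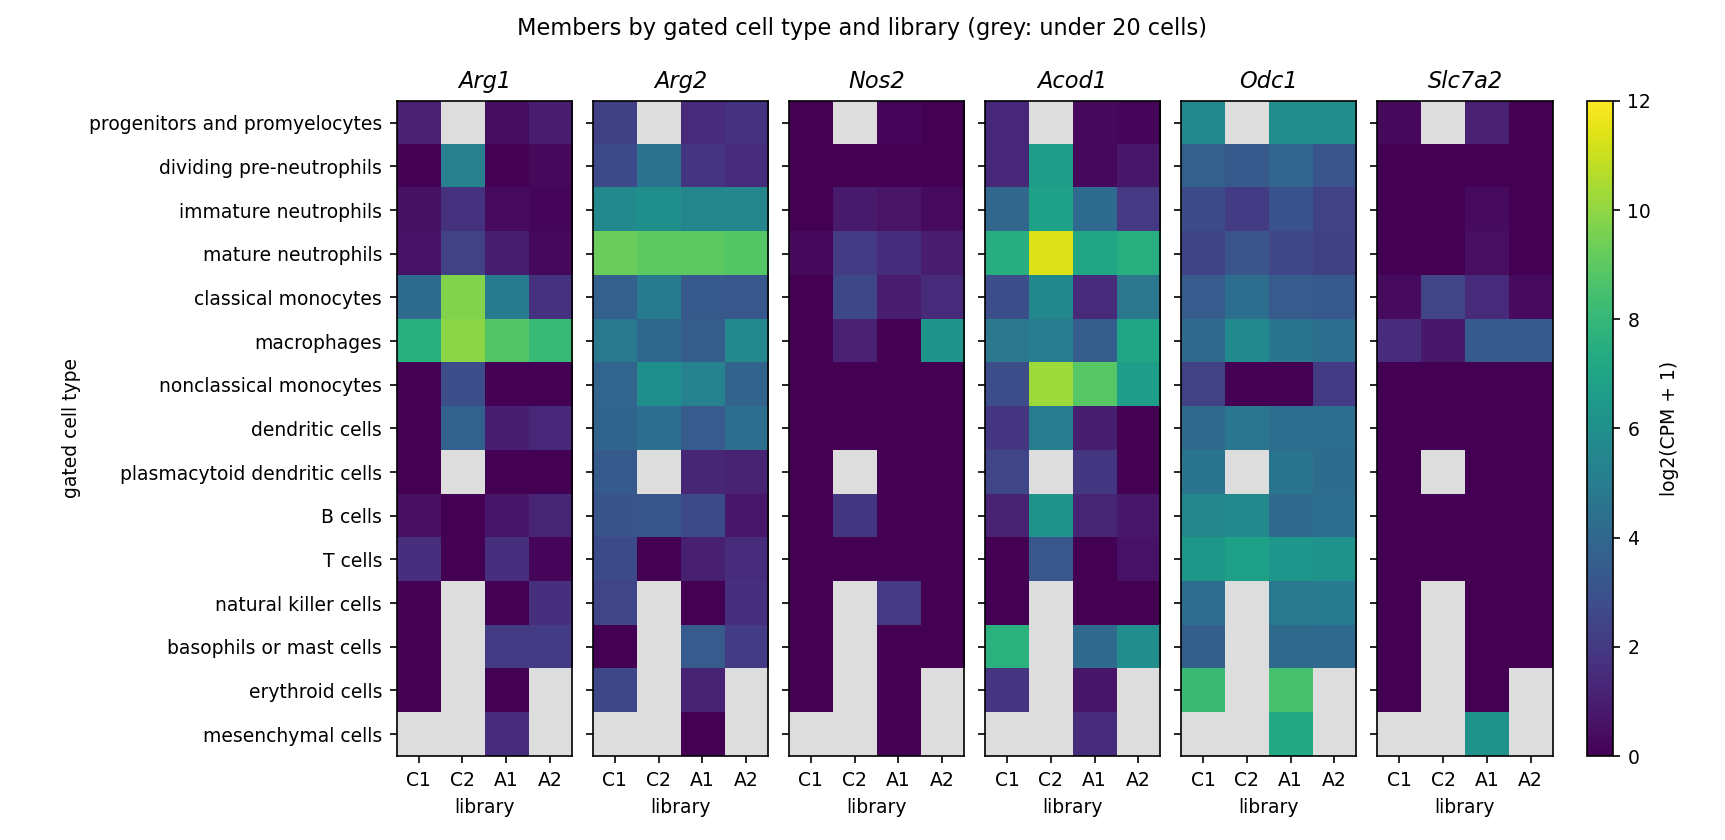
Levels of the 6 genes as log2(CPM + 1) by gated cell type (rows) and library (columns; C control, A adenosine), grey where a library held under 20 cells. Arg2 was highest in mature neutrophils (454 to 612 CPM), Arg1 in macrophages (193 to 948 CPM), and Odc1 in erythroid cells (292 and 364 CPM).

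Slc7a2, the arginine transporter, was scarce. The libraries held 6, 56, 107 and 14 Slc7a2 UMIs in 6, 27, 50 and 6 cells. Mesenchymal cells, which were few (2, 8, 23 and 2 cells), held 0, 13, 36 and 5 of these UMIs. In adenosine 1, the library with at least 20 such cells, this was 67.7 CPM, in 16 of 23 cells. Macrophages reached 1.88, 0.754, 9.58 and 9.71 CPM from 1, 2, 9 and 4 UMIs, too few to order the libraries. B and T cells held 0 UMIs in all libraries.

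Arg1 was a gene of the macrophage gate and of neighbouring monocyte-gate cells. Macrophages carried 193, 948, 442 and 267 CPM (463 ± 340, SD, n = 4 libraries), from 103, 2515, 415 and 110 UMIs. The level was highest in control 2, and both adenosine libraries lay between the controls. An Arg1 UMI was found in 17.9%, 51.4%, 25.3% and 21.4% of macrophages (median 9472, 8578, 9005 and 10032 UMIs). After thinning each cell to 1000 UMIs the shares were 9.09%, 35.2%, 13.2% and 14.6%; T cells, with medians of 6250, 5929, 4486 and 9131 UMIs, showed 0% in every library after thinning, which allows up to 2.17%, 8.33%, 1.70% and 0.269%. Among control 2 macrophages thinned to 5000 UMIs, 110 of 235 had an Arg1 UMI; 12.7% of these and 8.80% of the others had an Acod1 UMI.

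Within the classical monocyte gate, Arg1 was at 17.6, 847, 29.4 and 2.44 CPM. To describe where in this gate it lay, the gate was split in ways chosen after Arg1 had been seen to be uneven in it, so the splits carry no test. With a split by at least 2 UMIs of C1qa, C1qb, C1qc, Mrc1 and Ms4a7, genes of tissue macrophages, Arg1 was at 100, 922, 53.9 and 21.0 CPM inside (112, 303, 78 and 118 cells) and 9.73, 794, 27.0 and 0.310 CPM outside. The level was higher inside in each library, by little in control 2. A split by Leiden cluster 11, tried first, gave 883, 1189, 1015 and 119 CPM inside (31, 560, 33 and 21 cells) and 0.646, 2.83, 0.822 and 0.636 CPM outside, but those clusters were built from the variable genes of these cells, so that separation is no independent result.

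Macrophages and the classical monocyte gate together held 89.4%, 94.0%, 76.6% and 79.2% of the Arg1 UMIs. Single cells weighed on the sums outside control 2. In the classical monocyte gate of adenosine 1, 1 cell held 172 of 331 Arg1 UMIs, and in the 5 osteoclast-gate cells of that library 2 cells held all 168 UMIs. Mature neutrophils carried 0.497, 4.23, 0.995 and 0.190 CPM.

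**Figure D2:**
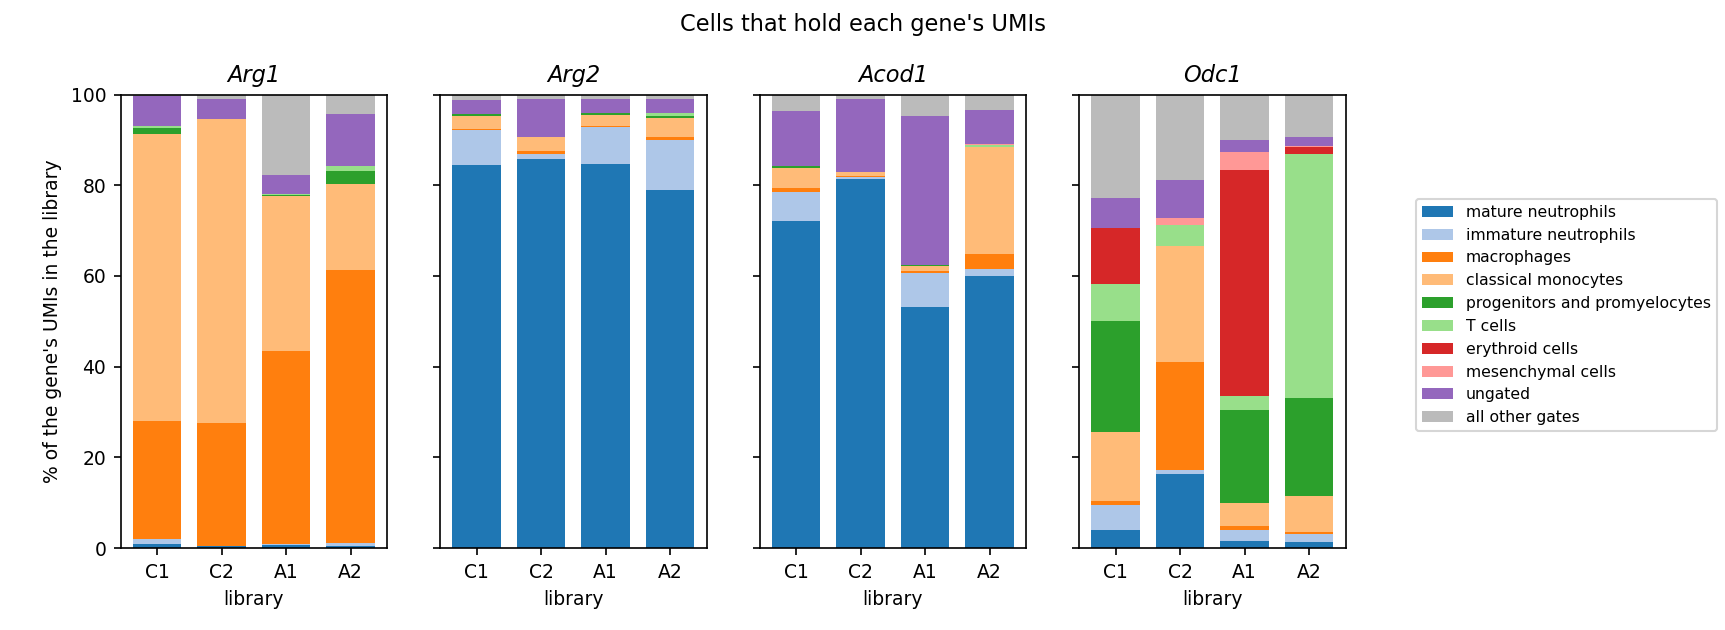
Share of each gene's UMIs (vertical axis, %) held by each gated cell type in each library (C control, A adenosine). Mature neutrophils held 78.8% to 85.7% of Arg2 UMIs in the 4 libraries, whereas the main holder of Odc1 UMIs differed between libraries.

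Arg2, the mitochondrial arginase, was a mature neutrophil gene in every library. Its level there was 612, 510, 507 and 454 CPM (521 ± 65.8, SD, n = 4 libraries), against 50.3, 62.7, 45.1 and 46.6 CPM in immature neutrophils and 3.89, 1.77 and 2.42 CPM in the progenitors of control 1, adenosine 1 and adenosine 2 (control 2 held 2 progenitors). All 4 mature values lay above all 4 immature ones. The comparison of these stages below called 2529 of 10145 tested genes higher in mature neutrophils. Dividing pre-neutrophils had 5.29, 22.6, 2.66 and 1.84 CPM. Mature neutrophils held 84.5%, 85.7%, 84.7% and 78.8% of all Arg2 UMIs. An Arg2 UMI was found in 65.9%, 63.5%, 59.5% and 57.6% of them (median 2259, 2702, 2199 and 2187 UMIs), and in 41.5%, 36.6%, 36.4% and 35.7% after thinning, against 0%, 0%, 0.568% and 0.0897% of thinned T cells. In mature neutrophils the level of control 2 lay inside the range of the others, whereas in the immature and dividing gates it was the highest.

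In monocytes and macrophages Arg2 was low: 28.2, 15.8, 10.6 and 48.6 CPM in macrophages and 11.8, 29.0, 9.23 and 8.63 CPM in the classical monocyte gate. These ranges overlapped. The 2 arginases thus had different main holders in these samples, Arg1 in macrophages and the monocyte gate and Arg2 in neutrophils.

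Nos2, which competes with the arginases for arginine, was close to undetected at this depth. The libraries held 2, 96, 52 and 65 UMIs in 2, 51, 23 and 17 cells. Mature neutrophils held 100%, 40.6%, 26.9% and 7.69% of these UMIs. The classical monocyte gate held 38.5%, 21.2% and 36.9% in control 2, adenosine 1 and adenosine 2. In adenosine 2 macrophages held the largest share, 46.2%. Macrophages of control 1 and adenosine 1 held 0 UMIs, which allows up to 5.63 and 3.19 CPM; those of control 2 held 3 UMIs and those of adenosine 2 held 30 UMIs in 4 cells. The Nos2 values therefore rested on a few cells.

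Mature neutrophils held 72.0%, 81.4%, 53.2% and 60.1% of the Acod1 UMIs. Their level was 177, 2666, 135 and 183 CPM. Control 2 stood far above, and control 1 lay between the adenosine libraries. The mature neutrophils of control 2 also had the low summed marker level given above (12778 CPM), whose part in this result was not tested. Immature neutrophils carried 14.4, 116, 17.5 and 3.03 CPM and progenitors 1.60, 0.253 and 0.173 CPM in the 3 libraries that held them. An Acod1 UMI was found in 11.7%, 73.7%, 7.10% and 14.6% of mature neutrophils, and in 7.18%, 59.8%, 4.62% and 8.74% after thinning. Thinned T cells showed 0%, 2.78%, 0% and 0%, and thinned B cells 0%, 2.60%, 0% and 0%. Control 2 B cells carried 72.8 CPM of Acod1, beside 116 CPM in the immature neutrophils of that library. Before thinning, 9.09% of these B cells had a UMI. The part of transcripts from other cells in the control 2 values was not tested. Macrophages carried 26.3, 32.8, 10.6 and 134 CPM. The nonclassical gate carried 6.12, 1193, 468 and 100 CPM, below mature neutrophils in 3 libraries and above them in adenosine 1, beside S100a8 at 5342, 19238, 6856 and 1185 CPM; the part of its neutrophil transcripts in this value was not tested. The basophil and mast cell gate of control 1 was at 203 CPM, with 35 of its 54 UMIs in 1 cell. Ungated cells were at 119, 2024, 319 and 68.3 CPM.

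Mature neutrophils were then set apart by 8 activation genes (Cxcl2, Cxcl3, Ccl3, Ccl4, Tnf, Il1a, Nfkbia and Icam1), chemokine, cytokine and NF-kB response genes, in cells thinned to 1000 UMIs. Cells with at least 3 of them made up 2.39%, 43.9%, 1.66% and 0.496% of mature neutrophils (77, 1649, 48 and 11 cells). In these cells Acod1 was at 4247, 4362, 6604 and 9818 CPM, and in cells with none of the 8 it was at 50.3, 402, 32.6 and 104 CPM. Control 2 had far more such cells. Its level within them was below that of both adenosine libraries, which rested on 48 and 11 cells. The share of such cells with an Acod1 UMI gave another order, at 75.3%, 82.9%, 75.0% and 81.8%. The 95% exact interval for adenosine 2 ran from 48.2% to 97.7%. Cells with 1 or 2 of the genes held 180, 1257, 75.7 and 282 CPM. Even without any activation gene, 24.4% of control 2 cells had an Acod1 UMI (95% exact interval 20.7% to 28.3%) against 4.49%, 2.85% and 7.05% in the other libraries. Arg2 did not follow these ranges: with at least 3 activation genes it was at 779, 516, 438 and 455 CPM, and with none at 607, 537, 531 and 484 CPM. Given the control 1 shares of the 3 ranges, the control 2 levels came to 681 CPM in place of 2505. Given the control 2 shares, the control 1 levels came to 1947 CPM in place of 179. The adenosine 1 and adenosine 2 levels then came to 2935 and 4443 CPM, above 2505, with 48 and 11 cells in the highest range. Why the libraries differ was not tested. These ranges are bounds on a per-cell count, not cell types, and their members come from the same libraries. The 8 genes were chosen with earlier results of these data known, so the rise of Acod1 over the ranges is no independent result.

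**Figure D3:**
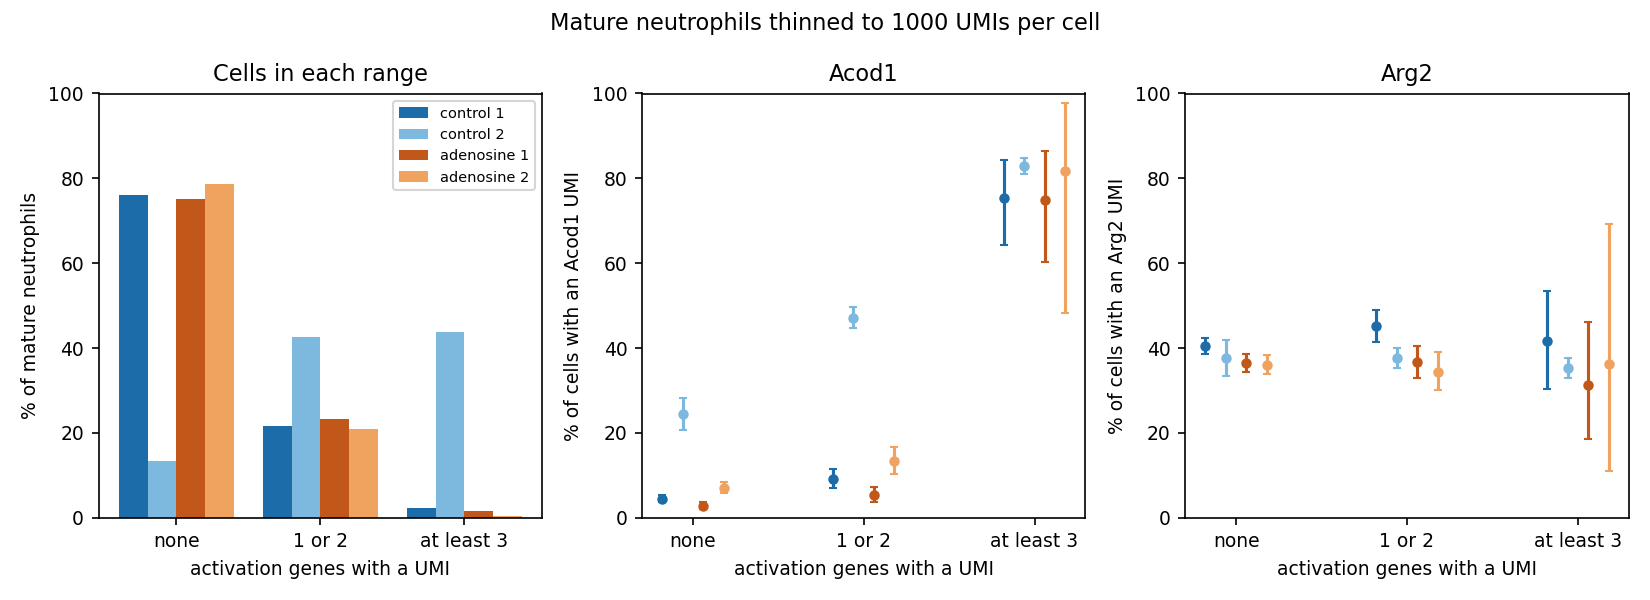
Mature neutrophils by the number of activation genes with a UMI, after thinning to 1000 UMIs: share of cells in each range (left, bars, %), and share of cells with an Acod1 UMI (middle) or an Arg2 UMI (right; points in %, with 95% exact intervals for counting error only), coloured by library. Acod1 shares were at most 24.4% with none and at least 75.0% with 3 or more, and Arg2 shares lay between 31.3% and 45.2%.

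Odc1, the polyamine enzyme, was highest in erythroid cells, followed by mesenchymal cells, T cells and progenitors. Erythroid cells carried 292 and 364 CPM in control 1 and adenosine 1 (23 and 102 cells), the libraries with at least 20 of them. Mesenchymal cells carried 162 CPM in adenosine 1, from 86 UMIs in 14 of 23 cells, 40 of them in 1 cell. T cells carried 81.9, 110, 78.0 and 70.4 CPM (85.2 ± 17.5, SD, n = 4 libraries), and progenitors 51.2, 58.1 and 59.1 CPM in control 1, adenosine 1 and adenosine 2. The T cell and progenitor ranges did not overlap, but these types were not compared by a test. How many other genes separate them likewise was not counted. Macrophages had 16.9, 50.5, 24.5 and 19.4 CPM, mature neutrophils 4.47, 8.10, 4.83 and 3.80 CPM and immature neutrophils 5.67, 3.22, 7.25 and 4.13 CPM. Dividing pre-neutrophils were at 8.08 to 13.9 CPM, below the progenitors. The main holder of Odc1 UMIs differed between libraries. Progenitors held 24.3% in control 1 and the classical monocyte gate 25.5% in control 2. Erythroid cells held 49.8% in adenosine 1, and T cells, 13.8% of cells there, held 53.8% in adenosine 2. The part of cell numbers in the library totals was not tested.

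**Figure D4:**
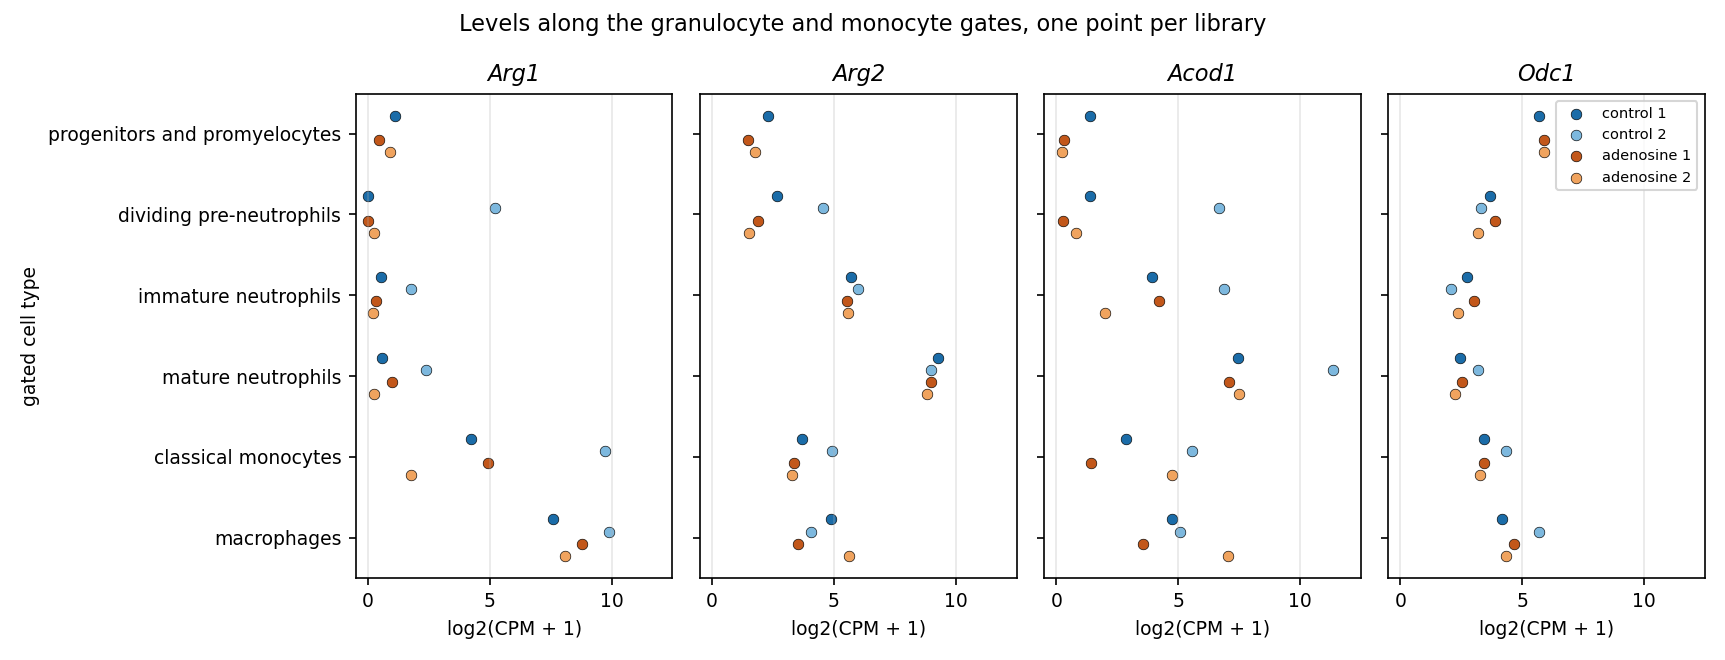
Levels as log2(CPM + 1) (horizontal axis) of Arg1, Arg2, Acod1 and Odc1 in the granulocyte and monocyte gates, 1 point per library with at least 20 cells. Arg2 points lay close together in mature and immature neutrophils and were spread in the other gates, with control 2 highest for Acod1 in mature neutrophils and for Arg1 in classical monocytes and macrophages.

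The first comparison asked which members differ between stages of neutrophil maturation within a library. From immature to mature neutrophils, Arg2 and Acod1 rose and Odc1 did not pass the test. Arg2 was higher by 3.36 log2 units (SE 0.16, adjusted p = 3.75e-05, edgeR quasi-likelihood test with the library as a block) and Acod1 by 4.15 (SE 0.46, adjusted p = 0.000535), each higher in 4 of 4 libraries. Odc1 differed by -0.13 (SE 0.28, adjusted p = 0.726 in edgeR). The other 3 genes were too low to test, so 2 of 3 tested members were called, where 51.0% of 10145 genes tested were. Both were called in all 10 alternatives, with changes of 3.22 to 3.47 for Arg2 and 3.71 to 4.56 for Acod1.

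Among 54 further genes of the pathway, 38 were tested between mature and immature neutrophils; 9 rose and 12 fell, with a median change of -0.19 against -0.02 for all genes. Of the ornithine and polyamine genes, Smox, spermine oxidase, rose by 2.34 (183 ± 250 against 21.9 ± 13.3 CPM, SD, n = 4 libraries) and Sat1, which acetylates polyamines for export or breakdown, by 1.37. Hmox1, heme oxygenase, rose by 2.20, and Gch1, which starts synthesis of the nitric oxide synthase cofactor tetrahydrobiopterin, by 1.68. Gatm, which uses arginine for creatine synthesis, fell by 3.47, and the cytosolic isocitrate dehydrogenase gene Idh1 and the citric acid cycle genes Suclg1 and Sdhc fell by 1.13, 0.94 and 0.83. All of these passed the edgeR threshold; Gch1 ranges overlapped between the stages.

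Progenitors and promyelocytes were compared with immature neutrophils in control 1, adenosine 1 and adenosine 2, since control 2 was left out of the fit. Odc1 was higher in progenitors by 2.35 log2 units (SE 0.16, adjusted p = 1.49e-08, edgeR). Arg2 was lower, at -5.16 (SE 0.18, adjusted p = 4.90e-11), and so was Acod1, at -5.24 (SE 0.39, adjusted p = 4.77e-08). Each was the same way in 3 of 3 libraries. All 3 tested members were called, but so were 84.7% of 11897 genes. Scaling by library size alone moved the median of all genes from 0.10 to 1.06 and the calls from 5229 higher and 4853 lower to 7468 and 2774; relative to those medians the 3 members kept their direction. Of 49 tested pathway genes, 33 were higher and 12 lower (median 0.79 against 0.10 for all genes). Higher were Ass1, which makes the arginine precursor argininosuccinate, by 6.18, the spermidine synthase Srm by 5.33, the mitochondrial isocitrate dehydrogenase Idh2 by 4.54 and the transporter Slc7a6 by 4.50. Lower were Padi4, which citrullinates histones, at -5.81, Oaz2, an inhibitor of Odc1 protein, at -1.97, the stress response factor Nfe2l2 at -1.89 and Sat1 at -1.86.

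The second question was which members separate macrophages from classical monocytes of the same library, with the whole monocyte gate used. Arg1 was higher in macrophages in 4 of 4 libraries, by 3.51 log2 units (SE 0.95, adjusted p = 0.0369, edgeR). The ranges of the gates overlapped, with 847 CPM in the monocyte gate of control 2. Of the cells in that gate and library, 560 lay in Leiden cluster 11 (1189 CPM) and 188 outside it (2.83 CPM). The Arg1 call was not stable and was made in 6 of 10 alternatives. It was lost without control 1 (adjusted p = 0.16), adenosine 1 (0.146) or adenosine 2 (0.109) and without the library block (0.732), all in edgeR. The change over all alternatives ranged from 0.97 to 4.49. Named clusters in place of the gates were not among the alternatives for comparisons of types. Odc1 was higher by 1.19 (SE 0.21, adjusted p = 0.00757, edgeR), a call lost without the library block (adjusted p = 0.0792). Acod1 (1.40, SE 0.56, adjusted p = 0.121) and Arg2 (0.68, SE 0.53, adjusted p = 0.428) did not pass in edgeR; without control 2 both did, at 2.34 and 1.41. With 2 of 4 tested members called, 19.4% of 11050 genes were called.

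Of 46 tested pathway genes, 3 were higher and 6 lower in macrophages than in classical monocytes (median -0.01 against -0.04 for all genes). Hmox1 was higher by 2.47 (624 ± 298 against 151 ± 161 CPM, SD, n = 4 libraries), Slc3a2, the heavy chain of amino acid transporters, by 1.22, and its partner Slc7a7, which carries arginine, by 0.66. Lower were the arginine deiminase Padi2 at -1.34, Idh1 at -0.85, Ass1 at -0.85 and the antizyme Oaz1, which targets Odc1 protein for degradation, at -0.62.

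Macrophages and mature neutrophils differed in each of the 4 members tested. Arg1 was higher in macrophages by 7.48 (SE 0.36, adjusted p = 4.29e-06, edgeR) and Odc1 by 1.38 (SE 0.26, adjusted p = 0.00145). Arg2 was lower, at -5.53 (SE 0.38, adjusted p = 1.13e-05), and Acod1 at -4.25 (SE 0.93, adjusted p = 0.00352). The direction held in all 10 alternatives for each. The background was high, 68.5% of 10091 genes, and scaling by library size alone moved the median of all genes from -0.08 to 0.89 and the calls from 3354 higher and 3554 lower to 5423 and 1727. Of 43 tested pathway genes 23 were higher in macrophages and 8 lower (median 1.10 against -0.08 for all genes). Ass1 (4.28), Gatm (3.90), the tetrahydrobiopterin enzyme Spr (3.53) and the citric acid cycle gene Idh3a (3.29) were higher, and Padi4 (-5.27), the tetrahydrobiopterin enzyme Pts (-1.98), Smox (-1.87) and the antizyme inhibitor Azin1 (-1.84) were lower.

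**Figure D5:**
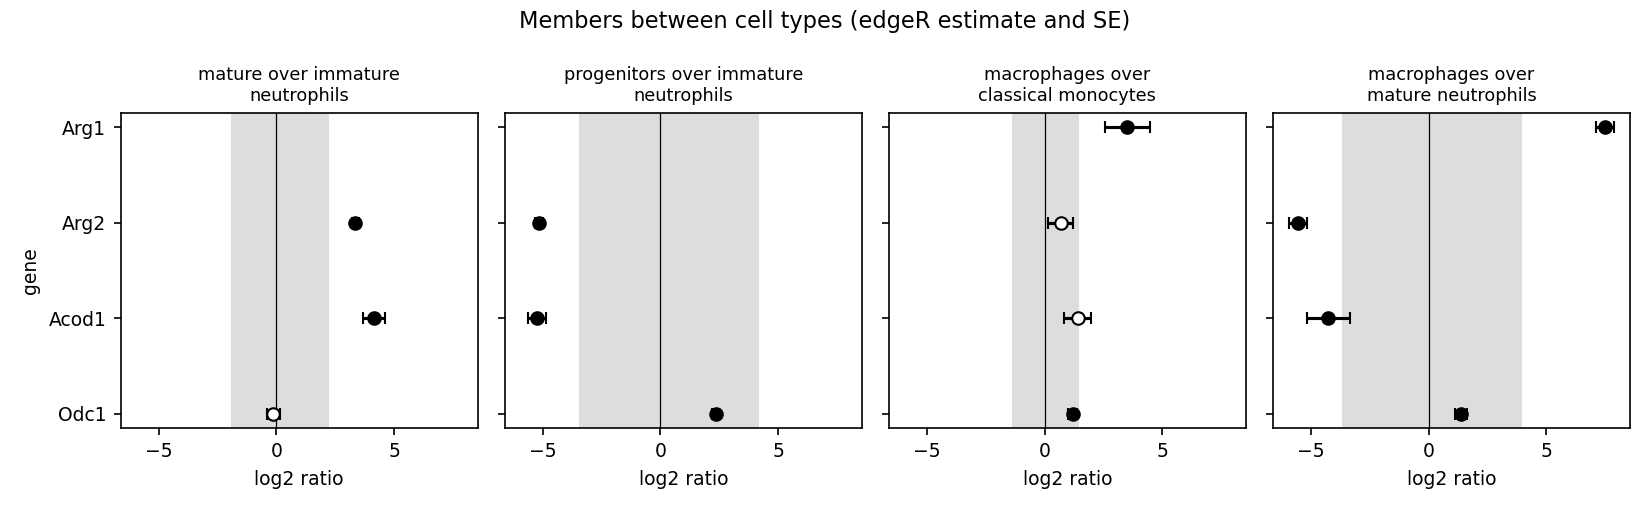
Change between cell types in log2 units (horizontal axis, edgeR estimate with SE) for the tested members; filled points passed an adjusted p of 0.05, and the grey band spans the 5th to 95th percentile of all genes tested. Arg1 (7.48) and Arg2 (-5.53) lay outside the band on opposite sides between macrophages and mature neutrophils.

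The study's own contrast, adenosine against control microgel, called no member in any cell type in the main edgeR fits of all 4 libraries. Some alternatives called members, as given below. In all cells together edgeR called 0% of 16368 genes, and 420 had an unadjusted p below 0.05; DESeq2 called 36 genes, no member among them. Arg1 was at 7.94, 317, 18.8 and 3.15 CPM, Arg2 at 117, 231, 81.3 and 52.3, Acod1 at 39.8, 1268, 34.6 and 27.6 and Odc1 at 18.5, 19.1, 43.4 and 27.4. For Arg2 and Acod1 each adenosine value lay under both control values, and for Odc1 each lay above; over all genes the groups did not overlap in 36.6%, with adenosine higher in 26.8% and lower in 9.82%. The edgeR log2 differences, adenosine over control, were -1.62 for Arg2 (SE 0.50, adjusted p = 0.873), -4.70 for Acod1 (SE 1.68), -4.24 for Arg1 (SE 1.91) and 0.71 for Odc1 (SE 0.32), all at that adjusted p. In such totals, fewer cells of a type and less RNA per cell cannot be told apart, and the share of mature neutrophils, which hold most Arg2 and Acod1, was 38.5%, 60.3%, 37.0% and 28.1%. Without control 2, Acod1 was at -0.45, Arg1 at 0.32 and Arg2 at -0.91.

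Within mature neutrophils edgeR called 0% of 10176 genes (282 at an unadjusted p below 0.05; DESeq2 called 5). Arg2 differed by -0.29 (SE 0.32, adjusted p = 0.88), with both adenosine libraries below both controls, an arrangement that 15.0% of genes shared. Acod1 differed by -3.31 (SE 1.29, adjusted p = 0.88 in edgeR), and by -0.10 without control 2, so the size rested on that library. Leaving out control 1 instead, which sets control 2 alone against both adenosine libraries, gave -4.21 with 1631 genes called, Acod1 included (adjusted p = 0.0113). Without a filter on low counts Acod1 was also called, at -3.26 (adjusted p = 1.78e-07, edgeR). In immature neutrophils edgeR called 0% of 10139 genes (134 at an unadjusted p below 0.05; DESeq2 4), with Acod1 at -2.88 (SE 1.06, adjusted p = 1.00) and -0.57 without control 2. It was called there without adenosine 2 (-2.21, adjusted p = 0.00279), without a filter on low counts (-2.81, adjusted p = 3.88e-14) and with the replicate block crossed (-2.69, adjusted p = 0.000655), all in edgeR. Arg2 was at -0.42 there (SE 0.29) and at -0.12 without control 2, with both adenosine libraries below both controls; groups did not overlap in 20.1% of genes, with adenosine lower in 7.06%.

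In monocytes and macrophages the main fits again called no member. Directions differed, since Arg2 (0.35, SE 0.65) and Acod1 were higher with adenosine in macrophages and lower in the classical monocyte gate. In the classical monocyte gate edgeR called 0% of 12452 genes (303 at an unadjusted p below 0.05; DESeq2 25). Arg1 differed by -5.05 (SE 2.06, adjusted p = 1.00), by -0.21 without control 2, and by -6.02 without control 1, where it was called (adjusted p = 0.0213, edgeR). It was also called without a filter on low counts (-5.01, adjusted p = 0.000119, edgeR), and was at -7.58 without adenosine 1. The gates and the clusters divided the libraries differently: clusters named as classical monocytes held 1061, 121, 596 and 895 cells and those named as macrophages 96, 929, 136 and 42, against 1327, 748, 888 and 1120 and 56, 286, 91 and 42 gated cells. With those clusters in place of the gates, Arg1 did not pass the filter on low counts in classical monocytes. Arg2 differed by -1.34 (SE 0.53, adjusted p = 1.00 in edgeR), with both adenosine libraries below both controls, which held for 9.23% of genes (26.4% in either direction); without control 1 it was called, at -1.91 (adjusted p = 0.0156), without control 2 it was at -0.39, and with the named clusters at -0.49. In macrophages, fitted although adenosine 2 held 42 cells, edgeR called 0% of 7655 genes (260 at an unadjusted p below 0.05; DESeq2 7). Arg1 differed there by -0.75 (SE 0.59, adjusted p = 1.00) and by 0.87 without control 2, and Acod1 by 1.11 (SE 0.78), or -1.62 without adenosine 2 and 2.15 without adenosine 1, where it was called (adjusted p = 0.00592, edgeR). With both gates pooled edgeR called 0% of 12624 genes (249; DESeq2 15), and Arg1 differed by -3.92 (SE 1.78), or 0.51 without control 2. Without control 1, Arg1 (-4.88, adjusted p = 0.0187), Arg2 (-1.60, adjusted p = 0.0307) and Odc1 (-1.66, adjusted p = 0.0245) were called in edgeR. Arg2 was at -1.12 there with all libraries (SE 0.47) and at -0.37 without control 2, and Odc1 at -1.06 and -0.02. The Arg2 values of the groups again did not overlap, as in 25.2% of genes (8.90% with adenosine lower). In dendritic cells (46 in adenosine 2) 0% of 8711 genes were called (194; DESeq2 0), and Arg2 and Odc1 differed by -0.33 and -0.23, with overlapping groups for both, and by 0.06 and 0.21 without control 2; groups did not overlap in 26.5% of genes, with adenosine lower in 9.28%.

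B cells gave the lowest unadjusted p of any member within a cell type. Odc1 was at 42.4, 53.2, 17.0 and 19.8 CPM in B cells, with each adenosine value under each control value, which held for 17.6% of genes (32.8% in either direction). The counts behind these values were 101, 19, 25 and 57 UMIs. The difference was -1.33 (SE 0.40, unadjusted p = 0.00832, adjusted p = 0.867, edgeR), with 0% of 10109 genes called, 517 at an unadjusted p below 0.05 and 14 called by DESeq2. It stayed between -1.63 and -1.12 over 12 alternatives and was called in 0 of them.

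The difference of the adenosine change between macrophages and mature neutrophils was tested in one model, and edgeR called 0% of 11414 genes (515 at an unadjusted p below 0.05; DESeq2 was not run for it). Acod1 differed by 3.13 log2 units (SE 1.18, unadjusted p = 0.0207, adjusted p = 1 in edgeR), Nos2 by 5.03 (SE 2.19), Arg1 by 1.16 (SE 0.66), Arg2 by 0.47 (SE 0.69), Slc7a2 by -0.40 (SE 0.57) and Odc1 by -0.01 (SE 0.73). Acod1 was called without control 1 (4.62), without adenosine 1 (4.41) and without a filter on low counts (3.04), and was at 1.03 without control 2. Nos2 was at 7.84 without adenosine 1, and ran from -3.89 to 7.84 over the fits that leave out a library. In the fit of macrophages alone, Nos2 and Slc7a2 did not pass the filter on low counts. A Nos2 UMI was found in 9.52% of the 42 adenosine 2 macrophages and in at most 0.699% of those elsewhere. For adenosine against control, edgeR called 0 of the 38 to 50 pathway genes tested per cell type, and 0 to 5 had an unadjusted p below 0.05.

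Genes whose levels followed each member most closely were found by Pearson correlation of log2(CPM + 1) over 41 sums of library and cell type with at least 50 cells, from 15 types; sums of one library share its depth and treatment, so these are descriptions. Arg1 was closest to Ecm1 (r = 0.923), the chemokine Ccl7 (0.918) and the scavenger receptor Stab1 (0.917). Arg2 was closest to Ndel1 (0.931), Cstdc4 (0.918) and the cytokine gene Il1f9 (0.901). Acod1 was closest to Hcar2 (0.909), Ptgs2 (0.903), the inducible cyclooxygenase, and the lectin receptor Clec4d (0.898). Odc1 was closest to the nucleolar gene Gnl3 (0.891), to Ankrd26 (0.886) and to the RNA acetyltransferase Nat10 (0.873). Nos2 and Slc7a2 reached 20 CPM in none of these sums, so no neighbours are named for them.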

How the data were processed

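Per the labels, callus cells were run on a 10x Chromium instrument (3' v2 kit) and, per the submitters' processing notes, processed with bcl2fastq and Cell Ranger 7.0.0 against mm10. Which annotation release was used, and whether intronic reads entered, is not given in the sources used here. In each deposited matrix the authors give whole UMI counts by gene and cell barcode (58453640, 32277757, 59503381 and 68117846 UMIs in 9949, 6753, 9402 and 9170 barcodes). The members, lists and gates were chosen with earlier results of these data known.

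Barcodes with under 200 genes or at least 10% mitochondrial UMIs were removed (1576), then the highest Scrublet scores at 0.8% per 1000 barcodes (2418), since the automatic threshold marked 0% in 3 libraries. This left 31280 cells (scanpy 1.11.5, leidenalg 0.10.2, Python 3.11.15). A cell was gated to the marker list with the highest mean scaled level, given at least 3 detected markers, a score of 0.2 and a margin of 0.05 over the next list; 1888 cells stayed ungated. Several thresholds were tried, and these were kept from marker levels and cell numbers before members were looked at in the gates. One further split of the monocyte gate is not reported here. Counts were summed per library and type, passed through filterByExpr and TMM scaling, and fitted by quasi-likelihood in edgeR 4.0.16 (R 4.3.3), with two-sided p adjusted by Benjamini and Hochberg over all genes tested (threshold 0.05). Comparisons of types used the library as a block and libraries with at least 20 cells of both. Treatment was tested with at least 50 cells per library; macrophages and dendritic cells fell short and were fitted as an addition. With 2 libraries against 2, the fit across genes supplies the spread. Alternatives were other scalings, no filter, DESeq2 1.42.0, the replicate block, doublets kept, named clusters and leaving out each library. Named clusters were used for adenosine against control and not for comparisons of types. The fits were also run on simulated sums of mature and immature neutrophils with known changes. No simulated library stood apart as control 2 does, so these runs do not cover that case. Shares of cells carry 95% exact intervals, and a count of 0 allows up to 3 counts; both cover counting error only. Named genes were the 6 members, per comparison up to 4 pathway genes in each direction past the threshold with at least 20 CPM, and the 3 genes most like each member.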

Additional observations from a re-analysis of the deposited data

How the results depend on the processing

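Alternatives kept the direction and the side of the threshold for 481 changes of single genes, reversed 48, made 18 calls appear and 5 disappear. The calls of Arg2 and Acod1 between mature and immature neutrophils, of Arg2, Acod1 and Odc1 between progenitors and immature neutrophils, and of Arg1, Arg2, Acod1 and Odc1 between macrophages and mature neutrophils were made in every alternative run. None of those alternatives used the named clusters. The cause was not tested for any change below, and with 2 libraries a group the fits that leave one out assume that the lone library varies like the others.

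Genes called for adenosine, 0 in each cell type as reported, numbered under DESeq2 36 in all cells, 5 in mature neutrophils, 4 in immature neutrophils, 25 in classical monocytes, 7 in macrophages, 14 in B cells and 15 in classical monocytes with macrophages. Without a filter on low counts they numbered 443 in mature neutrophils, 87 in immature neutrophils, 275 in classical monocytes, 102 in macrophages, 72 in dendritic cells, 112 in B cells, 3 in the pooled gates and 60 for the difference between macrophages and mature neutrophils. Scaling by library size alone called 1 in immature neutrophils, and keeping doublets 5 in macrophages. Leaving out a library gave 0 to 0 in all cells, 0 to 1631 in mature neutrophils, 1 to 31 in immature neutrophils, 0 to 800 in classical monocytes, 0 to 107 in macrophages, 0 to 451 in dendritic cells, 15 to 174 in B cells, 0 to 803 in the pooled gates and 2 to 536 for the difference; the highest came without control 1 in mature neutrophils, classical monocytes, dendritic cells, the pooled gates and the difference. Between types, it gave 3322 to 6711 for mature against immature neutrophils (5174 as reported) and 809 to 3016 for macrophages against classical monocytes (2148 as reported, 1081 with no library block).

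The labels number the libraries 1 and 2 in each group, but deviations of same-numbered libraries correlated at -0.108 over 16368 genes, so the numbers were not taken to pair them. With the replicate block, 31 genes were called in immature neutrophils and 2 in B cells; Nos2 turned to 0.93 in all cells, 0.13 in mature neutrophils and 0.18 in classical monocytes, and Slc7a2 to 0.28 in all cells. With the pairing crossed, 18 genes were called in immature neutrophils, 38 in macrophages, 14 in dendritic cells and 15 in B cells; the reversed log2 differences were 0.84 for Nos2 and 0.29 for Slc7a2 in all cells, and 0.00423 and 0.23 for Nos2 in mature neutrophils and classical monocytes.

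Other log2 differences that reversed were Slc7a2 in all cells (0.20 by library size alone, 0.13 with doublets), Slc7a2 in the pooled gates (0.22 with doublets, 0.55 with named clusters), Nos2 in classical monocytes (0.47 with doublets), and with named clusters Nos2 in mature neutrophils (0.46), Odc1 in immature neutrophils (-0.12) and Acod1 in classical monocytes (0.40); Odc1 between mature and immature neutrophils was 0.10 with no library block. Over the fits that leave out a library, reversed results ranged as follows. In all cells Arg1 ran from -5.91 to 0.32, Nos2 from -1.96 to 4.57 and Slc7a2 from -2.25 to 3.08. Nos2 in mature neutrophils ran from -1.35 to 2.53 and Odc1 in immature neutrophils from -0.15 to 0.46. In classical monocytes Nos2 ran from -2.09 to 7.17, Acod1 from -4.21 to 1.20 and Slc7a2 from -3.15 to 1.76. In macrophages Arg1 ran from -1.49 to 0.87, Arg2 from -1.05 to 1.28, Odc1 from -1.25 to 0.39 and Acod1 from -1.62 to 2.15. In dendritic cells Arg2 ran from -0.87 to 0.13 and Odc1 from -0.58 to 0.21. In the pooled gates Arg1 ran from -5.60 to 0.51, Nos2 from -1.34 to 8.04, Acod1 from -3.62 to 1.23 and Slc7a2 from -1.89 to 2.02. Odc1 between mature and immature neutrophils ran from -0.37 to 0.058. For the difference between macrophages and mature neutrophils, Slc7a2 ran from -1.43 to 0.063, Odc1 from -0.29 to 0.42, Arg2 from -0.84 to 1.57 and Nos2 from -3.89 to 7.84.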
